A study of Mus musculus with 6 samples.

Results

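Glutathione S-transferase (GST) genes outside the mu class were followed in liver RNA of p62+/+ and p62S351E/+ mice. The members were the rows of the count table named Gsta1, Gsta2, Gsta3 and Gsta4 (alpha class), Gstp1 (pi class), Gstt1, Gstt2 and Gstt3 (theta class), Gstz1 (zeta class) and Mgst1 (microsomal), which gave 10 genes of 24411. Livers of 3 wild-type (p62+/+) and 3 p62S351E/+ mice were taken at postnatal day 19, depleted of ribosomal RNA and sequenced with 75-base single reads, 1 library per mouse. p62S351E/+ mice carry in every cell 1 edited allele of Sqstm1, the gene for p62, with glutamate in place of Ser351 as a mimic of phosphorylation, and 1 wild-type allele. The edit was made in C57BL/6N-derived embryonic stem cells, and the line descends from a single chimeric male through in vitro fertilization. The sources used here give no sex and no further treatment for these mice, and p-values measure the spread between 3 mice per genotype. The question was which GST classes differed in level between the genotypes.

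GSTs join the thiol of glutathione to electrophilic compounds, a step of detoxification that prepares them for export from the hepatocyte. The cytosolic enzymes are dimers sorted into classes by sequence, and MGST1 is a separate trimeric membrane protein. Many GST genes are targets of NRF2, a transcription factor that KEAP1 keeps low and that is released when phosphorylated p62 binds KEAP1.

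The libraries held between 8696712 and 10341622 expected counts, of which between 134911 and 315436 lay outside Rn45s, Lars2 and Mir6236, so genes with few counts are imprecise. Normalized counts are expected counts divided by a library factor from edgeR's TMM method. The 9 hepatocyte markers found in the table summed to 13847, 12605 and 13256 normalized counts in p62+/+ livers. In p62S351E/+ mice 1, 2 and 3 the sum was 20091, 31011 and 14037. The markers did not move alike, with log2 fold changes of 0.83 for Alb, 1.10 for Apob, -0.04 for Apoa1 and 0.002 for Serpina1c. Of the 9 markers 8 had a log2 fold change above 0, and the median was 0.44. Brain transcripts stood apart in the opposite way to the marker sum. The 10 brain markers had 2222, 2328 and 2049 counts in p62+/+ mice, 2 and 6 counts in p62S351E/+ mice 1 and 2, and 2193 counts in p62S351E/+ mouse 3. In these libraries a different share of hepatocytes in the sample and a different amount of marker RNA per hepatocyte cannot be told apart. Whether brain RNA changed that share was not tested. Members are therefore given on the TMM scale, relative to the hepatocyte markers, and in p62S351E/+ mouse 3 alone.

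Across the 10 genes the difference between genotypes ran from near absence against clear detection to none that was detectable. A gene was called when its adjusted p was below 0.05 and its log2 fold change beyond 1 in edgeR's quasi-likelihood test with Benjamini-Hochberg adjustment over 5945 genes. Of the 8 members with enough counts to be tested, 1 was called higher, Gsta2, and 0 were called lower, where 0.841% of all genes tested were called higher and 0.0841% lower. Gsta2 passed the filter on low counts only through its level in p62S351E/+ mice. At an unadjusted p below 0.05 lay 6 of the 8, all higher, namely Gsta2, Gsta3, Gsta4, Gstp1, Gstt3 and Mgst1, where 9.02% of all genes tested were higher and 5.55% lower at that level. In these 6 genes every p62S351E/+ mouse was above every p62+/+ mouse, as in 12% of all genes tested. Members lower without overlap numbered 0, against 14.7% of all genes tested. With 3 mice per genotype the smallest two-sided p of an exact permutation test is 0.1.
The number called higher varied with the method. DESeq2 called 2 members (Gstp1 and Gsta3, where it called 3.14% of its genes higher, and gave Gsta2 no adjusted p), limma-voom called 4 (Gsta2, Gsta3, Gsta4 and Gstp1, where it called 2.05%), and edgeR's legacy method called 3 (Gsta2, Gsta3 and Gstp1, where it called 1.01%). Without the filter Gsta2 and Gsta3 were called (0.485% of all genes), and with at least 10 counts required in every library Gstp1 was called (2.99%).

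**Figure D1:**
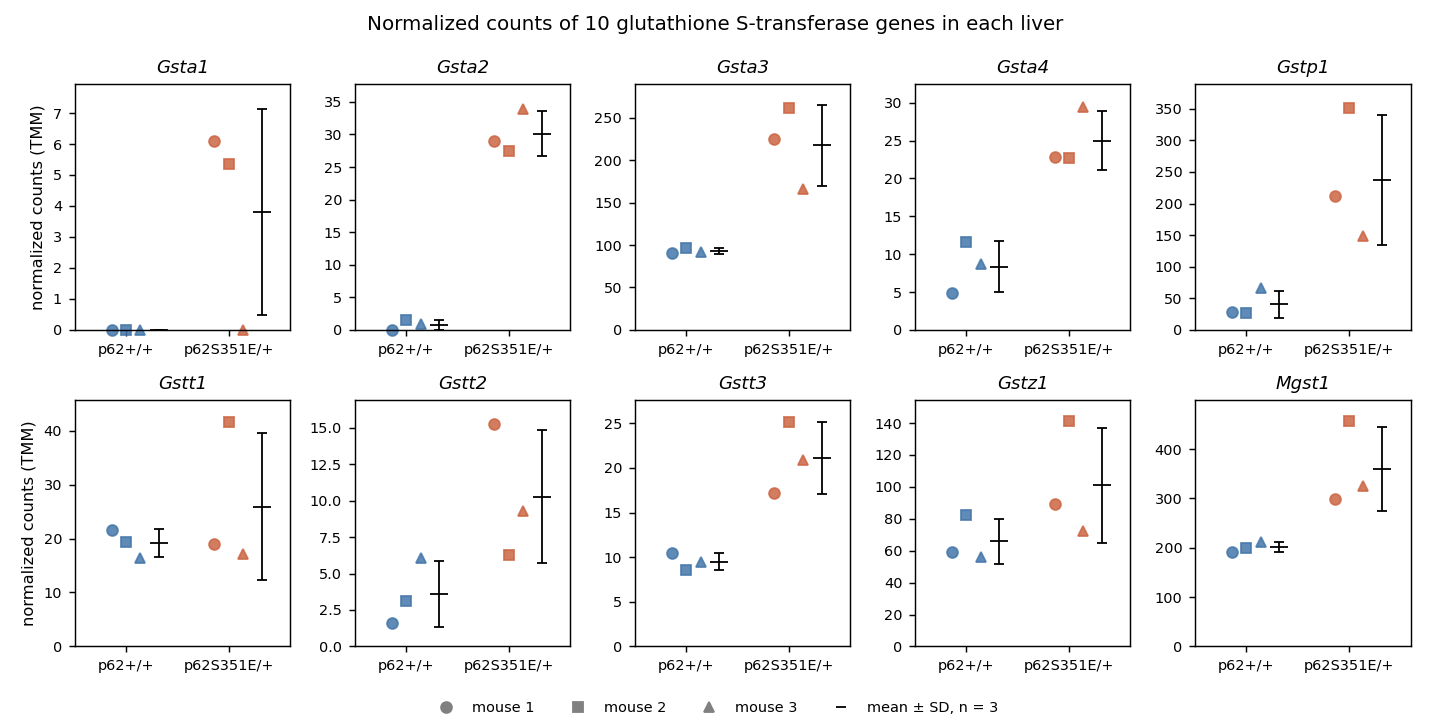
Normalized counts (TMM, linear axes from 0) of the 10 genes in each liver, with 1 point per mouse and the mean ± SD of 3 mice as a bar. Gsta2 lies at or below 1.55 in the p62+/+ livers and at or above 27.5 in those of p62S351E/+ mice, whereas the groups overlap for Gsta1, Gstt1 and Gstz1.

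Summed by class, the alpha genes had 102 ± 7.44 normalized counts in p62+/+ livers, against 276 ± 43.5 in p62S351E/+ livers, the pi gene 40.3 ± 21.97 against 237 ± 103, and the theta genes 32.2 ± 1.35 against 57.2 ± 13.9 (SD, n = 3 each). The zeta gene had 65.8 ± 14.3 against 100.9 ± 35.9 normalized counts and the microsomal gene 201 ± 10.5 against 360.3 ± 85.01 (SD, n = 3 each). The class sums of the genotypes overlapped for the zeta gene and not for the other classes, and the ratio of the means was 5.89 for the pi class and 2.70 for the alpha class.

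Of the 8 tested members the alpha gene Gsta2 had the largest log2 fold change. Gsta2 encodes a broad-spectrum alpha subunit that also reduces organic hydroperoxides, and its gene lies on the minus strand of chromosome 9 of GRCm38 (mm10) from 78331018 to 78355788. Its expected counts were 0, 2 and 1 in p62+/+ livers, against 15.2, 21.8 and 43.8 in p62S351E/+ mice. On the TMM scale these are 0, 1.55 and 0.864 against 29.0, 27.5 and 34.0 normalized counts, so that the p62+/+ livers were almost without this transcript and the p62S351E/+ livers resembled each other. In edgeR this was a log2 fold change of 5.03 with a standard error of 0.66 and an adjusted p of 0.00602. Without p62+/+ mouse 3 it was 5.07 (adjusted p = 0.083, edgeR), so the call was lost, and Gstp1 was then the called member (0.307% of all genes higher). With 3 against 81 counts summed over the mice, the ratio of normalized counts was 38.2 with an exact 95% interval from 12.6 to 189, which covers counting error only.

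Gsta1, the neighbouring alpha gene on the plus strand of chromosome 9 from 78230656 to 78242684, was hardly detected. It had 0 counts in all p62+/+ mice, a value that allows up to 3 counts per library, and 3.20, 4.25 and 0 counts in p62S351E/+ mice 1, 2 and 3. It was not tested, and the count of 0 in mouse 3 leaves the groups overlapping.

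The counts of these paralogs depend on how the authors' software divided reads. Of the 801 distinct 75-base windows in the coding transcripts of Gsta1 in GENCODE M21, 86.3% occur in another gene, 610 of them in Gm3776 and 243 in Gsta2. For Gsta2 the share was 33.5% of 1113 windows. Counts that were not whole occurred in 2 libraries for Gsta1 and in 3 for Gsta2. Gm3776, looked at after its shared sequence had been seen, had 0 counts in p62+/+ livers, against 7.57, 10.9 and 21.2 counts in the p62S351E/+ mice. Summed over Gsta1, Gsta2 and Gm3776, a quantity that does not change with the division of reads among them, the values were 0, 1.55 and 0.864 normalized counts in p62+/+ livers, against 49.5, 46.6 and 50.4 in p62S351E/+ mice. The rise was thus present in the sum as well, in all 3 p62S351E/+ mice.

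**Figure D2:**
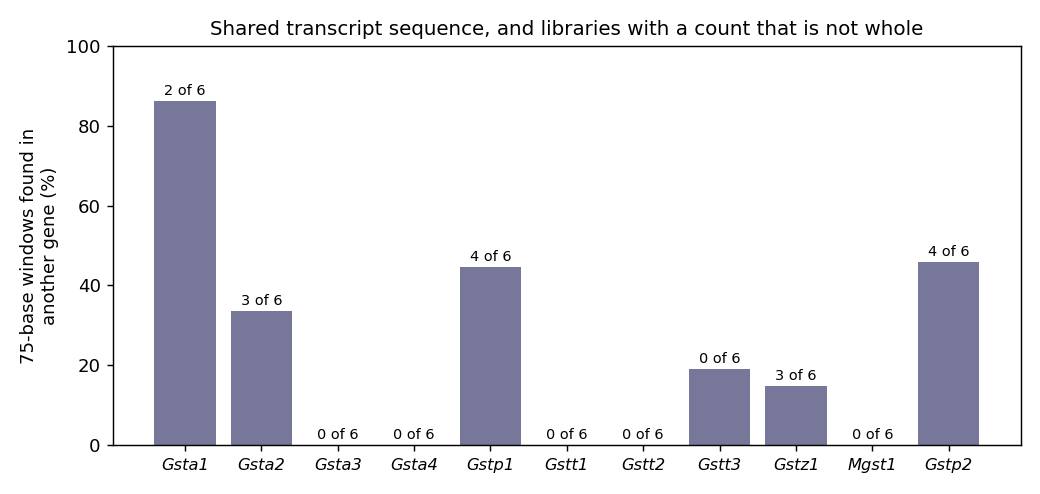
Share of 75-base transcript windows of each gene that also occur in another gene of GENCODE M21 (bars, in percent from 0), with the number of the 6 libraries in which its count was not whole printed above. Gsta1 has the highest share, 86.3%, and Gsta3, Gsta4, Gstt1, Gstt2 and Mgst1 share no window.

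The promoters of Gsta1 (chr9:78230419-78230718, plus strand) and Gsta2 (chr9:78347096-78347395, minus strand) are printed because their genes share transcript sequence. The sequences are those of RefSeq on GRCm38.p6, from 250 bases before the start to 50 after it, read 5′ to 3′ on the gene's strand, and 8 of the 10 members had an entry. They were searched on both strands for TGACNNNGC and TGAGNNNGC, the core of the antioxidant response element to which NRF2 binds with small MAF proteins, and the TGAG spelling was added after the sequences had been read. Matches are in capitals. At least 1 of these cores occurs in 27.8% of all 32851 promoter windows of this length, so a match is a description only.
Gsta1: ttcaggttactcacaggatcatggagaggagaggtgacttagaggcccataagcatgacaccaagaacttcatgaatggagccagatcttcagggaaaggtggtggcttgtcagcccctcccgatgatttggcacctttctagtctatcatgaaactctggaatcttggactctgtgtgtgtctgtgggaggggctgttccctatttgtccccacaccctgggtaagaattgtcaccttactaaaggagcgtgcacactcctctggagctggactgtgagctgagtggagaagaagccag
Gsta2: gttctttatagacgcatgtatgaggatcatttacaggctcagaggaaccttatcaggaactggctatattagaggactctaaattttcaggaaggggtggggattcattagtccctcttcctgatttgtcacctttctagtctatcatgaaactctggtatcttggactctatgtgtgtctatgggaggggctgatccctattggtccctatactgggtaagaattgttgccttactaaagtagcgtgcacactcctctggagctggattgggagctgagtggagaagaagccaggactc
The 2 windows align with 74.6% identity over 311 columns, the highest value among the promoters of the members, against 52.0% for Gsta1 and Gsta3. Neither window holds a searched core, and sequence farther from the start was not searched. The RefSeq start of Gsta2 used here lies inside the gene as GENCODE draws it.

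Gsta3 and Gsta4, alpha genes that share no 75-base window with other genes, were higher by smaller factors. GSTA3 is known in mice for conjugating the epoxide of aflatoxin B1, and its gene lies on the plus strand of chromosome 1 from 21240589 to 21265661. Gsta3 had 90.7, 97.0 and 91.6 normalized counts in p62+/+ livers, against 225, 261 and 167 in p62S351E/+ mice. The wild-type livers hardly differed and all p62S351E/+ livers were above them. The log2 fold change of 1.22 (standard error 0.23, 95% interval 0.70 to 1.74) did not pass (adjusted p = 0.0576, edgeR), and over 24 alternatives the adjusted p ran from 0.000387 to 0.466. GSTA4 removes 4-hydroxynonenal, a product of lipid peroxidation, and is encoded on the plus strand of chromosome 9 from 78182774 to 78209349. Gsta4 had 4.81, 11.6 and 8.64 normalized counts in p62+/+ livers, against 22.9, 22.7 and 29.4 in p62S351E/+ mice, again without overlap. Its log2 fold change was 1.57 (standard error 0.37, 95% interval 0.73 to 2.41, adjusted p = 0.115, edgeR).

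The promoter of Gsta3 (chr1:21240335-21240634, plus strand) is shown as the alpha promoter with a searched core, TGACATTGC at 121 bases before the start.
Gsta3: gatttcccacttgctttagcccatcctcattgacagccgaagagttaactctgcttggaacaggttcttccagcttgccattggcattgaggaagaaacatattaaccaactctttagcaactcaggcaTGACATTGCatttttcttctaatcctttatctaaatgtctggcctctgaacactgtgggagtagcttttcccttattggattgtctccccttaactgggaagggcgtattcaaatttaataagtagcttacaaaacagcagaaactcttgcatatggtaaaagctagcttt

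Differences in response within the alpha class were read from ratios of members, in which the scaling of the libraries nearly cancels. The log2 ratio of Gsta2 to Gsta4, computed with 1 added to each normalized count, was -2.54, -2.31 and -2.37 in p62+/+ livers, against 0.33, 0.27 and 0.20 in p62S351E/+ mice, a shift of 2.67 (two-sided exact permutation p = 0.1, the smallest possible, and 0.173 after adjustment over 19 pairs of members). Since Gsta2 was near 0 in p62+/+ livers, the shift depended on the added value and was 3.18 with 0.5 and 1.41 with 5 added. For Gsta3 over Gsta4 the shift was -0.34 with overlapping groups (exact permutation p = 0.5). Gsta2 over Gsta4 was thus higher in every p62S351E/+ liver, by a test that cannot pass a threshold of 0.05, and no difference in response between Gsta3 and Gsta4 was detectable.

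Gstp1, the pi-class gene on the minus strand of chromosome 19 from 4035407 to 4037985, had the next largest fold change. Its enzyme conjugates many electrophiles and binds the kinase JNK, and in adult mouse liver the gene is known for a higher level in males. Gstp1 had 28.0, 27.2 and 65.6 normalized counts in p62+/+ livers, against 212, 351.03 and 149 in p62S351E/+ mice. All p62S351E/+ livers were above all p62+/+ livers, and p62+/+ mouse 3 stood above the other p62+/+ mice. The log2 fold change was 2.56 (standard error 0.46, 95% interval 1.48 to 3.64), with an adjusted p of 0.0653 (edgeR) that missed the threshold. The gene passed in 6 of 24 alternatives, among them DESeq2 (adjusted p = 8.17e-05), limma-voom (0.00139) and edgeR without p62+/+ mouse 3 (log2 fold change 3.11, adjusted p = 0.049). Over these alternatives, with the fit of p62S351E/+ mouse 3 alone left aside, the adjusted p ran from 8.17e-05 to 0.357.

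Transcripts that mark the sexes were unevenly spread, which touches Gstp1. Xist, transcribed from the inactive X chromosome, had 56.8, 1168 and 925 normalized counts in p62+/+ livers, against 1.90, 0 and 1191 in p62S351E/+ mice. The Y-linked gene Ddx3y had 24.1, 6.21 and 5.18 against 40.0, 41.6 and 5.42. Libraries with high Xist thus also held a Y-linked transcript, and p62+/+ mouse 1 held both. These values do not assign a sex to each mouse, and the sorting by Xist below is a description only. The p62S351E/+ mouse with high Xist, mouse 3, had 149 normalized counts of Gstp1, above the 27.2 and 65.6 of the 2 p62+/+ mice with high Xist. The p62+/+ mouse with low Xist had 28.0. With Xist as a covariate the log2 fold change of Gstp1 was 2.14 (adjusted p = 0.242, edgeR).

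Gstp1 also has a close copy. Of its 968 windows of 75 bases 44.5% occur in Gstp2, which lies beside it on chromosome 19, and the counts of Gstp1 were not whole in 4 libraries. Gstp2 had 3.09, 0 and 0 counts in p62+/+ livers, against 3.41, 13.4 and 4.11 in p62S351E/+ mice. The sum of Gstp1 and Gstp2 was 30.5, 27.2 and 65.6 against 219, 368 and 152 normalized counts, so the division of reads between them moved the values little. The promoter of Gstp1 (chr19:4037863-4038162, minus strand) holds TGAGTCAGC at 74 bases before the start and a second core on the opposite strand close to the start. Both are in capitals.
Gstp1: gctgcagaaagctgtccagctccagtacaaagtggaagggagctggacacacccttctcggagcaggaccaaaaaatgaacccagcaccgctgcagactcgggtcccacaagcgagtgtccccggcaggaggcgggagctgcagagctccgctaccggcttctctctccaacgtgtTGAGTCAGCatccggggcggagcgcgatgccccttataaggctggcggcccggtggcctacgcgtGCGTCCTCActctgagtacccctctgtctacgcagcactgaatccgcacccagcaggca

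The theta genes, which stand together on the minus strand of chromosome 10, had unlike values in the p62S351E/+ livers. Gstt1 lies from 75783813 to 75798584 and encodes an enzyme known for conjugating small halogenated alkanes. It had 21.7, 19.4 and 16.4 normalized counts in p62+/+ livers, against 19.04, 41.6 and 17.04 in p62S351E/+ mice, with 2 of the 3 p62S351E/+ livers inside the wild-type range. Its log2 fold change was 0.43 (standard error 0.37, 95% interval -0.42 to 1.28, adjusted p = 0.592, edgeR), and it turned to -0.088 without p62S351E/+ mouse 2. Gstt3, from 75774115 to 75781414, had 10.4, 8.54 and 9.50 normalized counts in p62+/+ livers, against 17.1, 25.2 and 20.9 in p62S351E/+ mice, without overlap. The log2 fold change of 1.15 (standard error 0.30, 95% interval 0.46 to 1.84) did not pass (adjusted p = 0.147, edgeR). In GENCODE the readthrough gene Gm20441 overlaps Gstt3 and holds 19.1% of its windows.

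Gstt2, from 75831114 to 75837424, encodes an enzyme that acts on aryl sulfates and hydroperoxides. It had 2, 4 and 7 counts in p62+/+ livers, against 8, 5 and 12 counts in p62S351E/+ mice and was not tested. In normalized counts these were 1.605, 3.11 and 6.05 against 15.2, 6.30 and 9.30, groups that just failed to overlap. The log2 ratio of Gstt1 to Gstt3 was 0.99, 1.10 and 0.73 in p62+/+ livers, against 0.14, 0.70 and -0.28 in p62S351E/+ mice, a shift of -0.75 (exact permutation p = 0.1, adjusted 0.173). The margin was narrow for mouse 2, and with 5 in place of 1 added the shift was -0.56 and the groups overlapped (exact permutation p = 0.2).

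Gstz1 and Mgst1, the zeta and the microsomal member, had smaller fold changes than the alpha and pi genes. Gstz1 encodes maleylacetoacetate isomerase, an enzyme of tyrosine degradation, on the plus strand of chromosome 12 from 87147165 to 87164723. It had 59.4, 82.2 and 55.9 normalized counts in p62+/+ livers, against 89.5, 141 and 72.0 in p62S351E/+ mice, with p62+/+ mouse 2 above p62S351E/+ mouse 3. The log2 fold change was 0.61 (standard error 0.30, 95% interval -0.06 to 1.29, adjusted p = 0.377, edgeR). Its counts were not whole in 3 libraries, and 14.8% of its windows lie in Pomt2, a gene on the opposite strand that overlaps it and had at most 5 counts in any library. The 6 genes of tyrosine degradation, Gstz1 included, had a median log2 fold change of 0.66. This stands beside -0.03 for all genes tested and 0.44 for the hepatocyte markers. Of the 6 genes 0 were called, where 0.841% of all genes tested were called higher and 0.0841% lower.

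MGST1 sits in the endoplasmic reticulum and the outer mitochondrial membrane and reduces lipid hydroperoxides. Its gene, on the plus strand of chromosome 6 from 138140316 to 138156755, had whole counts in all libraries. Mgst1 had 192, 199 and 212 normalized counts in p62+/+ livers, against 299, 457 and 325 in p62S351E/+ mice, without overlap. The log2 fold change of 0.84 (standard error 0.23, 95% interval 0.32 to 1.37) was below the threshold of 1 and had an adjusted p of 0.161 (edgeR). Of its 2 promoter windows in RefSeq, the first (chr6:138140277-138140576, plus strand) holds a TGAC core on the opposite strand at 56 bases before the start, and the other holds none.
Mgst1: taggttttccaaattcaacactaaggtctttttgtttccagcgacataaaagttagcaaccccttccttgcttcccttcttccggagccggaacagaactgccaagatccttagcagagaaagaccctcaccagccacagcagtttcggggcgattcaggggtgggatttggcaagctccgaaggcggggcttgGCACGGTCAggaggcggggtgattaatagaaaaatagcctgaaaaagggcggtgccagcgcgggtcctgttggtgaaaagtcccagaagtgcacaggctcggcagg
Cores were also found in the windows of Gstt1 and Gstz1, whereas those of Gstt3 had none. Whether cores go with the fold changes was not tested, and sequence outside these windows was not searched.

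**Figure D3:**
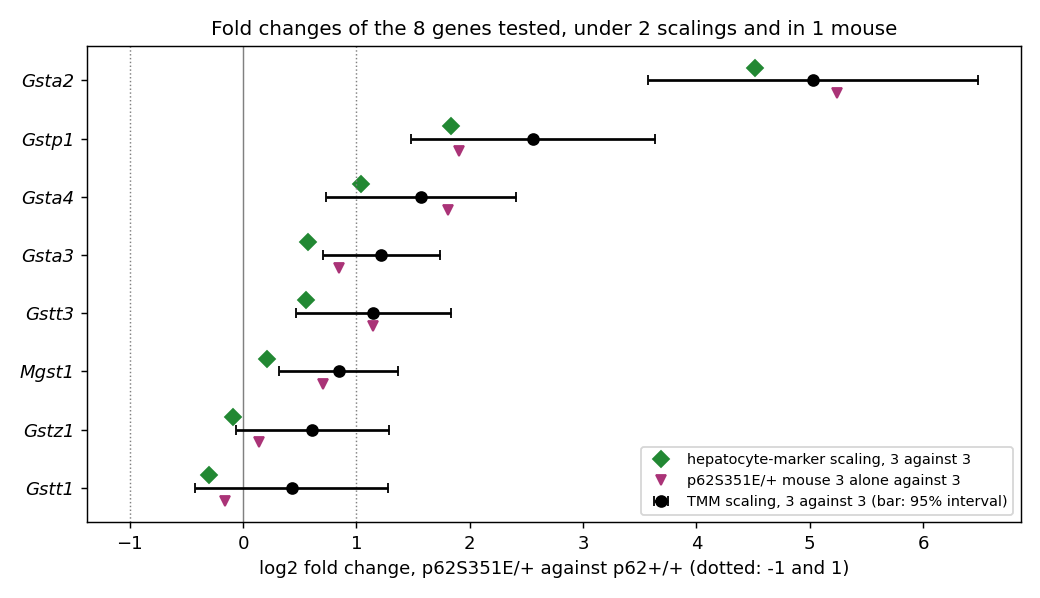
Log2 fold changes of the 8 tested genes, p62S351E/+ against p62+/+. Black points are the TMM fit with 95% intervals, green diamonds the fit scaled by hepatocyte markers, and purple triangles p62S351E/+ mouse 3 alone against the 3 p62+/+ mice. Gsta2 stays above 4 in all 3, and Gstt1 and Gstz1 lie on both sides of 0.

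Because the sum of the hepatocyte markers was itself higher in p62S351E/+ mice 1 and 2, the members were set against this sum. Alb was its largest part, with for example 7379 of 16237 counts in p62+/+ mouse 2 and 13009 of 24614 in p62S351E/+ mouse 2. Alb was itself higher in p62S351E/+ mice without overlap (log2 fold change 0.83). Overlap on this scale thus does not show an equal level per hepatocyte. Relative to these markers 4 of the 8 tested members, Gsta2, Gstp1, Gsta3 and Gstt3, were higher without overlap, as were 1.87% of all genes tested, and 0 members were lower without overlap, as were 28.6% of all genes. Gstp1 had 20.2, 21.6 and 49.5 counts per 10000 hepatocyte-marker counts in p62+/+ livers, against 106, 113 and 106 in p62S351E/+ mice. Gsta2 had 0, 1.23 and 0.652 against 14.4, 8.86 and 24.2. For Gsta3 the values were 65.5, 77.0 and 69.1 against 112, 84.1 and 119, with p62S351E/+ mouse 2 closest to the wild-type range. Gstt3 was at 7.53, 6.77 and 7.17 against 8.53, 8.13 and 14.9, so that only mouse 3 stood far from the wild-type values. These 4 genes reached the smallest exact permutation p of 0.1.
The remaining members overlapped on this scale. Mgst1 had 139, 158 and 160 counts per 10000 hepatocyte-marker counts in p62+/+ livers, against 149, 147 and 231 in p62S351E/+ mice (exact permutation p = 0.7). Gstz1 had 42.9, 65.2 and 42.1 against 44.5, 45.5 and 51.3 (exact permutation p = 1). Gstt1 had 15.6, 15.4 and 12.4 against 9.48, 13.4 and 12.1 (exact permutation p = 0.2). Gsta4 had 3.48, 9.24 and 6.52 against 11.4, 7.31 and 21.0 (exact permutation p = 0.2), with mouse 2 inside the wild-type range.

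**Figure D4:**
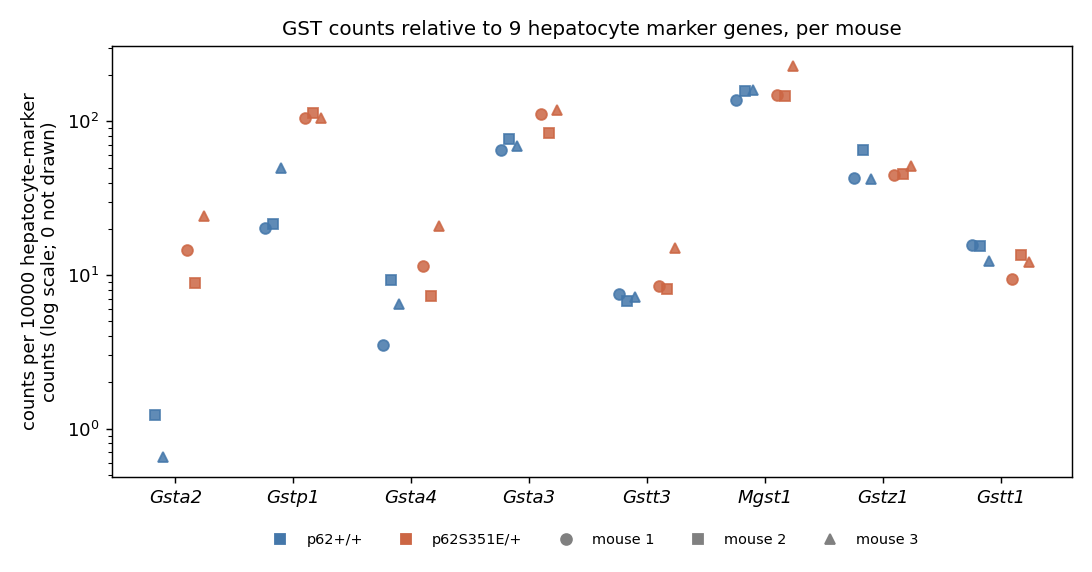
Counts of the 8 tested genes per 10000 counts of 9 hepatocyte markers in each mouse, on a log axis, with blue for p62+/+ and orange for p62S351E/+. The 3 p62S351E/+ mice lie between 106 and 113 for Gstp1, above all p62+/+ mice, while Mgst1, Gstz1 and Gstt1 overlap between the genotypes.

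In edgeR the hepatocyte-marker scaling moved the median log2 fold change of all genes from -0.03 to -0.61. Under it Gsta2 had a log2 fold change of 4.52 (adjusted p = 0.0449, edgeR) and was the 1 called member, where 0.185% of all genes tested were called higher. Gstp1 had 1.83 (adjusted p = 0.111), Gsta4 1.04 (0.397), Gsta3 0.57 (0.375), Gstt3 0.55 (0.486) and Mgst1 0.21 (0.596). Gstz1 and Gstt1 turned to -0.090 (adjusted p = 0.849) and -0.30 (adjusted p = 0.625).
p62S351E/+ mouse 3, whose sums of brain and hepatocyte markers were like those of p62+/+ mice, was also compared alone with these mice. Its spread was assumed to be that of the p62+/+ mice. The log2 fold changes were 5.24 for Gsta2, 1.81 for Gsta4, 1.90 for Gstp1, 0.85 for Gsta3, 1.14 for Gstt3 and 0.70 for Mgst1. Those of Gstz1 and Gstt1 were 0.14 and -0.16. Called at both thresholds were Gsta2 and Gsta4, where 0.949% of all genes tested were called higher. Without mouse 3, 5 members were called, Gsta2, Gsta3, Gsta4, Gstp1 and Gstt3, where 5.21% of all genes tested were called higher.

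The shares of the classes among the expressed GSTs differed between the genotypes. The pi class took 6.86%, 6.05% and 14.1% of the expected counts of the 10 genes in p62+/+ livers, against 22.7%, 26.2% and 18.1% in p62S351E/+ mice. The microsomal gene took 47.0%, 44.2% and 45.5% against 31.97%, 34.2% and 39.5%, and the zeta gene 14.5%, 18.3% and 12.0% against 9.57%, 10.5% and 8.76%. The theta genes together took 8.25%, 6.91% and 6.84% against 5.50%, 5.46% and 5.75%. These shares do not depend on the scaling of the libraries. The pi share was higher and the microsomal, zeta and theta shares were lower in all p62S351E/+ mice, whereas the alpha share of 23.4%, 24.5% and 21.6% against 30.2%, 23.6% and 28.0% overlapped. Shares are parts of a whole, so a larger pi share leaves less for the other classes. In normalized counts the microsomal and theta sums were higher in p62S351E/+ mice without overlap, and the zeta sum overlapped.
The log2 ratio of Gstp1 to Mgst1 moved by 1.75, from -2.73, -2.83 and -1.68 in p62+/+ mice to -0.49, -0.38 and -1.12 in p62S351E/+ mice. For Gstp1 over Gstz1 the shift was 1.99, and for Gsta3 over Gstz1 it was 0.62, each without overlap. All 3 had the smallest exact permutation p of 0.1, as did 11 of the 19 pairs, with an adjusted p of 0.173. Gstz1 over Mgst1 shifted by -0.24 with overlap (exact permutation p = 0.4).

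**Figure D5:**
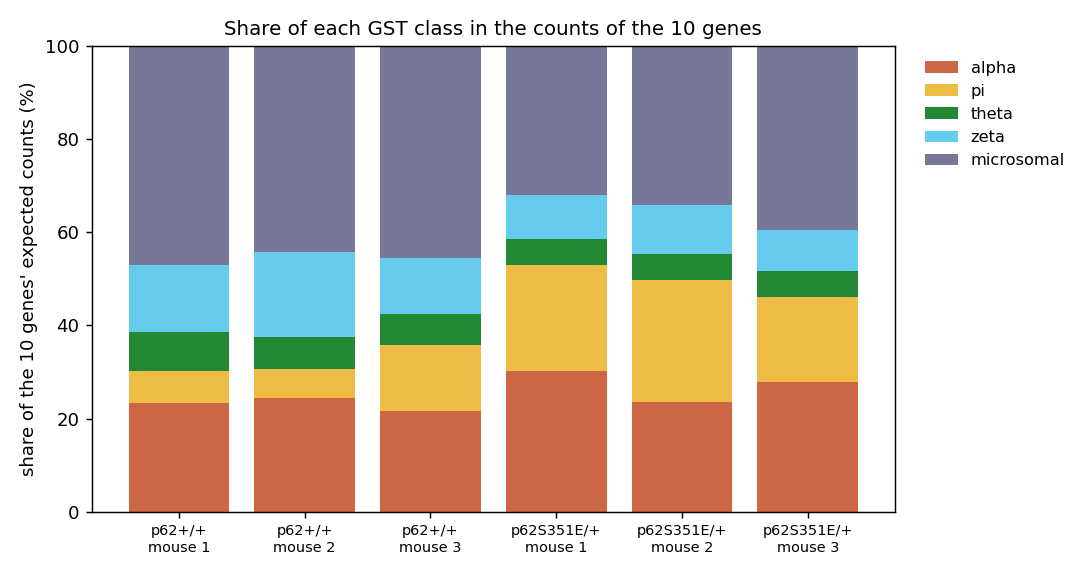
Share of each GST class in the expected counts of the 10 genes, as stacked bars that sum to 100% for each mouse. The pi share is at most 14.1% in the p62+/+ livers and at least 18.1% in those of p62S351E/+ mice.

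Divided by the length of the longest coding transcript in GENCODE M21, Mgst1 was the most abundant member in p62+/+ livers with 172 ± 9.02 normalized counts per kilobase (SD, n = 3). It was followed by Gsta3 with 63.9 ± 2.36, Gstp1 with 49.1 ± 26.8, Gstz1 with 39.7 ± 8.62, Gstt1 with 17.3 ± 2.39, Gsta4 with 8.56 ± 3.50, Gstt3 with 5.05 ± 0.504, Gstt2 with 1.59 ± 1.002 and Gsta2 with 0.926 ± 0.894 normalized counts per kilobase (SD, n = 3 each). Neighbours in this order whose ranges overlapped were Gsta3 and Gstp1, Gstp1 and Gstz1, Gsta4 and Gstt3, Gstt2 and Gsta2, and Gsta2 and Gsta1.
In p62S351E/+ livers Gstp1, with 289 ± 126 normalized counts per kilobase, overlapped Mgst1, with 309 ± 72.8 (SD, n = 3 each). Gsta2 reached 34.6 ± 3.90 normalized counts per kilobase, below Gstz1 with 60.9 ± 21.7 and above Gsta4 with 25.6 ± 3.94, without overlap with these neighbours (SD, n = 3 each). Its range overlapped that of Gstt1, which had 23.4 ± 12.3 normalized counts per kilobase.

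The most-counted member of each class was set beside the genes with the most similar values over the 6 mice, among 702 genes with a mean of at least 50 normalized counts. The genes nearest to Gstp1 were Pigr (Pearson r = 0.996), Ugt1a6b (0.994) and Stard10 (0.988), and to Gsta3 they were Aldh1l1 (0.995), F5 (0.994) and Sepp1 (0.993). Nearest to Gstz1 were Ces1c (0.994) and Agt (0.993), to Mgst1 Rps2 (0.987), Tns1 (0.984) and Eef1a1 (0.983), and to Gstt1 Usp9x (0.965), B2m (0.957) and Apon (0.955). These coefficients describe 6 livers that share their library factors and the difference between genotypes.

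Other genes around the conjugation step were counted from lists. Beside each list stands the share over all genes tested, of which 0.841% were called higher and 0.0841% lower. Of 17 further GST-related genes present in the count table, some without any count, 6 were tested. Among these 2 were called higher, the mu-class genes Gstm1 and Gstm3, and 0 lower. Their log2 fold changes of 3.59 and 4.32 lie between those of Gstp1 and Gsta2. Among 8 tested genes of glutathione supply, Gclc (log2 fold change 2.57) and Gsr (2.23), for the synthesis and the reduction of glutathione, were called higher and 0 lower. Of 6 tested genes for the export and breakdown of conjugates, the transporter genes Abcc3 (3.29) and Abcc4 (4.08) were called higher and 0 lower. For the metabolism of 4-hydroxynonenal, the substrate of GSTA4, 6 genes were tested, of which the carbonyl reductase genes Cbr1 (3.64) and Cbr3 (6.19) were called higher and 0 lower. Of 25 tested NRF2 targets outside the GST family 10 were called higher and 0 lower, with a median log2 fold change of 1.59 beside -0.03 for all genes tested. Some of the genes called, among them Gstm3, Gsr, Abcc4 and Cbr3, passed the filter on low counts only through their level in p62S351E/+ mice. With so few counts in p62+/+ livers these genes could hardly have been called lower. The lists share several genes and were drawn up with earlier results known.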

How the data were processed

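Per the labels and the study's methods, liver RNA was depleted of ribosomal RNA and sequenced with single 75-base reads, which the authors processed with Trim Galore, mapped with STAR to mm10 and assigned to genes with RSEM. The deposited values are expected counts for 24411 gene symbols, without normalization, and the versions and annotation are not given in the sources used here. Of the nonzero values 6.45% were not whole (over 0.001 from a whole number), since RSEM divides reads that match several genes, and all were rounded for testing. The strand setting is not given in the sources used here, so reads of overlapping genes on opposite strands cannot be told apart. Each column was assigned to a mouse by its name.

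Counts were filtered with filterByExpr (minimum count 10), scaled by TMM and tested by edgeR 4.0.16 (quasi-likelihood, robust, not the legacy method) in R 4.3.3, with Benjamini-Hochberg adjustment over 5945 genes. Standard errors were derived from the log2 fold change and its F statistic, and a 95% interval uses the test's degrees of freedom. DESeq2 1.42.0 and limma 3.58.1 served as alternatives. The tests were checked on simulated counts. Ratios of members were compared by exact permutation, two-sided. Positions are GENCODE M21 (GRCm38), promoters RefSeq (GRCm38.p6). Named were all members, up to 4 called genes of each list and the 3 genes most like each class's most-counted member (Pearson r of log2 normalized counts). Some genes that this rule selects are not reported here. Members, lists and tests were chosen with earlier results of these data known. The hepatocyte-marker scaling and the fit of p62S351E/+ mouse 3 alone were added after the marker sums had been seen.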

Additional observations from a re-analysis of the deposited data

How the results depend on the processing

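Gsta2 had log2 fold changes from 4.46 to 5.81 under the 22 alternatives that tested it, and missed the threshold without p62+/+ mouse 3 (adjusted p = 0.083, edgeR). With 0, 2 and 1 counts in p62+/+ livers its direction could hardly have turned, so that it kept it is no support. DESeq2 gave Gsta2 no adjusted p, and it was not tested with at least 10 counts required in every library. The settings with an adjusted p below 0.01 and with no minimum fold change reuse the main fit and cannot change the direction of any member. Gsta3, Gsta4, Gstp1, Gstt3 and Mgst1 also kept their direction, while Gstt1 fell below 0 with library size only (-0.28), the Xist covariate (-0.049), the brain-marker covariate (-0.12), hepatocyte-marker scaling (-0.30), without p62S351E/+ mouse 2 (-0.088) and in mouse 3 alone (-0.16), and Gstz1 with library size only (-0.10) and hepatocyte-marker scaling (-0.090). Leaving out 1 mouse at a time, Gstt1 ran from -0.088 to 0.68. The cause was not tested.

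Against 1 member called higher, DESeq2 gave 2, limma-voom 4, the legacy method 3 and no filter 2. Leaving out 1 mouse gave from 1 to 5, with 5 without p62S351E/+ mouse 3. Against 50 genes higher and 5 lower, limma-voom gave 122 and 13, no filter 79 and 10, library size only 12 and 2, the Xist covariate 27 and 2, the brain-marker covariate 29 and 3, and an adjusted p below 0.01 gave 18 and 1. Hepatocyte-marker scaling gave 11 higher. Lower genes numbered 11 with DESeq2, 8 with the legacy method, 29 with at least 10 counts in every library and 23 in mouse 3 alone. Leaving out 1 mouse gave from 16 to 333 higher and from 1 to 975 lower genes, the most without p62S351E/+ mouse 3. With the replicate number as a block there were 18 higher and 1 lower, and Gsta2 was called (adjusted p = 0.0492, edgeR; 0.303% of all genes higher). Same-numbered mice did not deviate together (correlations 0.0757, -0.0906 and -0.00136), so the numbers were not taken as pairs. The median of all genes moved from -0.03 to -0.68 with library size only, to 0.15 with DESeq2 and to -0.16 without a filter. With 5 in place of 1 added before the log, the ratio shifts turned to -0.42 for Gsta1 over Gsta3, -0.46 for Gsta1 over Gsta4 and -0.016 for Gstt2 over Gstt3. The other 35 of 38 such recomputed shifts kept their direction.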

Other observations

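Other cell types were followed by marker lists in the same libraries. Summed normalized counts in p62+/+ and p62S351E/+ mice ran from 76.9 to 89.8 and from 96.1 to 128 for 7 macrophage markers, from 136 to 239 and from 169 to 257 for 7 endothelial markers, from 23.3 to 82.9 and from 22.5 to 70.5 for 7 bile duct markers, and from 219 to 313 and from 116 to 236 for 8 erythroid markers. Of these lists 4, 4, 1 and 6 genes were tested, in this order, and 0 were called in either direction. Over all genes tested 0.841% were called higher and 0.0841% lower, so 0 calls among so few genes say little about other cell types. Genes with too few counts, such as the macrophage marker Marco, were not tested. The defining bile duct gene Epcam had 0 counts in all libraries but p62S351E/+ mouse 2, which had 1. The 8 keratinocyte and stomach markers together had at most 9 counts in any library.

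Hepatocyte genes of the lobule's zones were summed in the same way. The 8 periportal genes summed to between 630 and 887 normalized counts in p62+/+ mice and to 1925, 2314 and 1312 in p62S351E/+ mice, with 0 of 7 tested genes called. The 8 pericentral genes summed to between 1823 and 1829 and to 1257, 2012 and 1768, with 0 of 6 tested genes called. Over all genes tested 0.841% were called higher and 0.0841% lower. Of the pericentral genes, Glul and Slc1a2 are also known from brain astrocytes. Glul had 299, 297 and 272 normalized counts in p62+/+ mice against 38.1, 119.7 and 191 in p62S351E/+ mice. Slc1a2 had 207, 239.9 and 196 against 32.4, 32.8 and 179.7. In p62S351E/+ mouse 3, whose brain markers were like those of p62+/+ mice, both were below all p62+/+ mice. Axin2 was also lower without overlap, and Cyp1a2 was higher without overlap. Whether brain RNA had a part in these values was not tested. The part of zonal genes in the GST values was not tested.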
